A study of Mus musculus with 2 samples.

Results

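Steroid hormones act on the uterus through receptors, the chaperones that hold those receptors ready for hormone, and the coactivators that carry their signal to chromatin. The genes Pgr, Esr1, Nr3c1, Nr3c2, Fkbp4, Fkbp5, Ncoa1, Ncoa2 and Greb1 belong to this machinery. They were taken by symbol from the feature tables, and all 9 were found among 32285 features. Their counts of unique molecular identifiers (UMIs, tags that mark each captured RNA molecule) were followed in single uterine cells. Cell barcodes were sorted into classes by marker RNA: epithelial barcodes by Epcam, Krt8, Krt18 and Cldn7, stromal barcodes by Dcn, Col1a2 and Col3a1, and muscle barcodes by Actg2, Cnn1, Myh11 and Des. The cuts were 10, 10 and 20 marker UMIs per 10000 UMIs, and all further barcodes were called other.

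The study measured whole uteri of female mice on gestational day 3.5, just ahead of implantation. Each genotype gave 1 library. The control was Mig-6f/f, with both copies of Mig-6 flanked by loxP sites and no Cre, and the library labelled KO (knockout) was Pgrcre/+Mig-6f/f, which adds Cre at the Pgr gene. Mig-6 is encoded by Errfi1, a feedback inhibitor of the EGF receptor. The floxed gene was thus shared by both groups. Since 1 copy of Pgr carries Cre in the library labelled KO only, an effect of that allele on Pgr cannot be told apart from an effect of Mig-6 loss. Cre under Pgr is directed to cells that express Pgr, so immune cells and endothelium are not its main target. The sources used here do not give the age of the mice, the number of animals per library or their hormone levels.

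As background, progesterone and estrogen receptors are transcription factors that are folded by heat shock protein 90 together with immunophilins. Fkbp4 (FKBP52) favours hormone binding by the progesterone receptor, and mice without it have uteri that do not accept embryos. Fkbp5 (FKBP51) competes with it and is a classic target of glucocorticoid and progesterone signalling. Before implantation progesterone acts mainly through the stroma and restrains estrogen action in the epithelium, and Greb1 is a chromatin factor that both estrogen and progesterone receptors use.

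The control library held 44871170 UMIs over 4627 barcodes, and the library labelled KO held 23317904 UMIs over 3118 barcodes. After filtering, 4303 and 2881 barcodes remained, with medians of 9172 and 4881 UMIs, and 3 barcode sequences occurred in both libraries. The epithelial class had 742 barcodes (17.2%) from the control and 1422 (49.4%) from the library labelled KO, with median depths of 11641 and 9485 UMIs. The stromal class had 3180 (73.9%) and 1049 (36.4%), with median depths of 8914.5 and 3637 UMIs. The muscle class had 69 and 49 barcodes and the other class 312 and 361. Among the other barcodes, 161 and 198 were immune-like by Ptprc, Tyrobp, Fcer1g, Cd52, Laptm5 and Coro1a, 55 and 42 were endothelial-like by Pecam1, Cdh5, Egfl7, Emcn and Kdr, and 96 and 121 remained. The sums of the defining markers were set by the cuts, so they do not check the class names. The epithelial sum was 4026 and 4336 CPM (UMIs of a gene per 1000000 UMIs of its class and library) in epithelial barcodes and 7.70 and 28.2 CPM in stromal barcodes. The stromal sum was 3706 and 3771 CPM in stromal barcodes and 33.4 and 10.2 CPM in epithelial barcodes. Among markers outside the cuts, Krt7 had 645 and 1109 CPM in epithelial barcodes and 1.27 and 6.61 CPM in stromal ones. Pdgfra had 174 and 182 CPM in stromal barcodes and 1.67 and 0.978 CPM in epithelial ones. The epithelial markers Krt19 and Cdh1 and the stromal markers Lum and Hoxa11 ran the same way. The remaining barcodes carried the stromal markers at 552 and 401 CPM, below the cut. The muscle class of the library labelled KO also held the pericyte gene Rgs5, at 293 CPM against 22.1 CPM in control muscle.

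Errfi1 itself went against the label in the stroma, where control barcodes had 196 CPM and those of the library labelled KO 732 CPM, 3.73-fold higher (3.57 to 3.90). It was also higher in muscle, at 290 and 1097 CPM, and in the remaining barcodes, at 150 and 747 CPM. In epithelial barcodes it was 575 and 513 CPM, a ratio of 0.892 (0.864 to 0.922). The immune-like and endothelial-like ratios, 1.40 and 1.54, had intervals that hold 1. The sources used here do not say what the deletion removes, and reads from elsewhere in the gene check nothing. Directions below are therefore between the control and the library labelled KO. With 1 library per genotype no test of genotype was possible. All intervals are exact 95% intervals for counting error and do not include variation between mice. Changes in RNA per cell and in the mix of cells within a class cannot be told apart.

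Pgr and Greb1 were higher, and Fkbp4, Fkbp5 and Ncoa1 lower, in the library labelled KO in both main classes. Promoters of 4 of these members, all but Ncoa1, are shown here. Each is the 250 bases before the RefSeq transcription start in GRCm38.p6, written 5′ to 3′ on the gene's strand. That build differs from the mm39 named for the count tables, and the coordinates apply to GRCm38.p6 only. Pgr lies at chr9:8899583-8899832 (plus strand), the shown Greb1 start, 1 of 2, at chr12:16800887-16801136 (minus strand), Fkbp4 at chr6:128438657-128438906 (minus strand) and Fkbp5 at chr17:28486150-28486399 (minus strand). Capitals mark the GC box GGGCGG, or CCGCCC where it lies on the opposite strand, in Pgr, Fkbp4 and Fkbp5. In Greb1 they mark TGACCT, the opposite strand of AGGTCA, which is the core that estrogen response elements repeat as inverted copies.
Pgr: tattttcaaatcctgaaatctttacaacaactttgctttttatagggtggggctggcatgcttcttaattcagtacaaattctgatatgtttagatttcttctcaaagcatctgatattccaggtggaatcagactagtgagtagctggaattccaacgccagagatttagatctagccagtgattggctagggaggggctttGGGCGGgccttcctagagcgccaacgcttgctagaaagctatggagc
Greb1: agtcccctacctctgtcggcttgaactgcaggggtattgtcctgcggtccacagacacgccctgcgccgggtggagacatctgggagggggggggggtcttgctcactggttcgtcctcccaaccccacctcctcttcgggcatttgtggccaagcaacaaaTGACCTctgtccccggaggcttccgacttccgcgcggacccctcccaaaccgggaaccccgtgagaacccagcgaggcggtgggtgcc
Fkbp4: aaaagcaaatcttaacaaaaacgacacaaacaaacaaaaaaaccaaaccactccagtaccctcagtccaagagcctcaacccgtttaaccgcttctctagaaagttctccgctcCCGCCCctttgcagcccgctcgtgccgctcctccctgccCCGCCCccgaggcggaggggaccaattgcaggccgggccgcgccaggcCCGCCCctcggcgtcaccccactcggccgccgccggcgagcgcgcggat
Fkbp5: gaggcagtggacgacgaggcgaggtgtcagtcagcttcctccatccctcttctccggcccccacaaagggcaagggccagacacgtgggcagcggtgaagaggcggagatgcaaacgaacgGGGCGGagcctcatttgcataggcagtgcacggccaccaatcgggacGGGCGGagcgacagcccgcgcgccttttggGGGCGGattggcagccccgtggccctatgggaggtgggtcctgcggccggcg

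RefSeq promoters were matched for 7 of the 9 genes, with 9 start sites in all, and motifs were searched on both strands. A full estrogen response element, GGTCA followed after 3 bases by TGACC, was in 0 of the 9 and in 0.06392% of all 32851 promoters. AGGTCA was in 1 of the 9, the Greb1 start shown, where it begins at -88, and in 14.02% of all promoters. The element bound by progesterone and corticosteroid receptors, AGAACA followed after 3 bases by TGTTCT, was in 0 of the 9 and in 0.009132% of all. Its core TGTTCT was in 0 of the 9 and in 16.08% of all. The GC box, a general promoter element, was in 5 of the 9 and in 32.74% of all, with 1 in Pgr at -47 and 3 each in Fkbp4 and Fkbp5. TGTTCT is part of the longer element that ends in it, and AGGTCA can overlap the full estrogen element. A match describes the letters in these 250 bases and says nothing of binding.

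The 9 genes did not move as a group. Pgr and Greb1 were higher in the library labelled KO in epithelium and stroma, Fkbp4, Fkbp5 and Ncoa1 were lower in both, and Esr1 and Nr3c2 were lower in epithelium and higher in stroma. All 9 had at least 20 UMIs over both libraries in each of these classes. In epithelium 0 of 9 were at least 2-fold higher, where 4.92% of 13398 measured genes were, and 2 of 9 (Fkbp5 and Nr3c2) were at least 2-fold lower, where 15.5% were. In stroma 1 of 9 (Nr3c2) was at least 2-fold higher against 5.61% of 14424 genes, and 1 of 9 (Fkbp5) at least 2-fold lower against 11.5%. Counts of 1 or 2 among 9 are close to those backgrounds. The median log2 ratio of the 9 was -0.41 in epithelium, where the median of all measured genes was -0.18, and 0.25 in stroma, where it was -0.05.

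**Figure D1:**
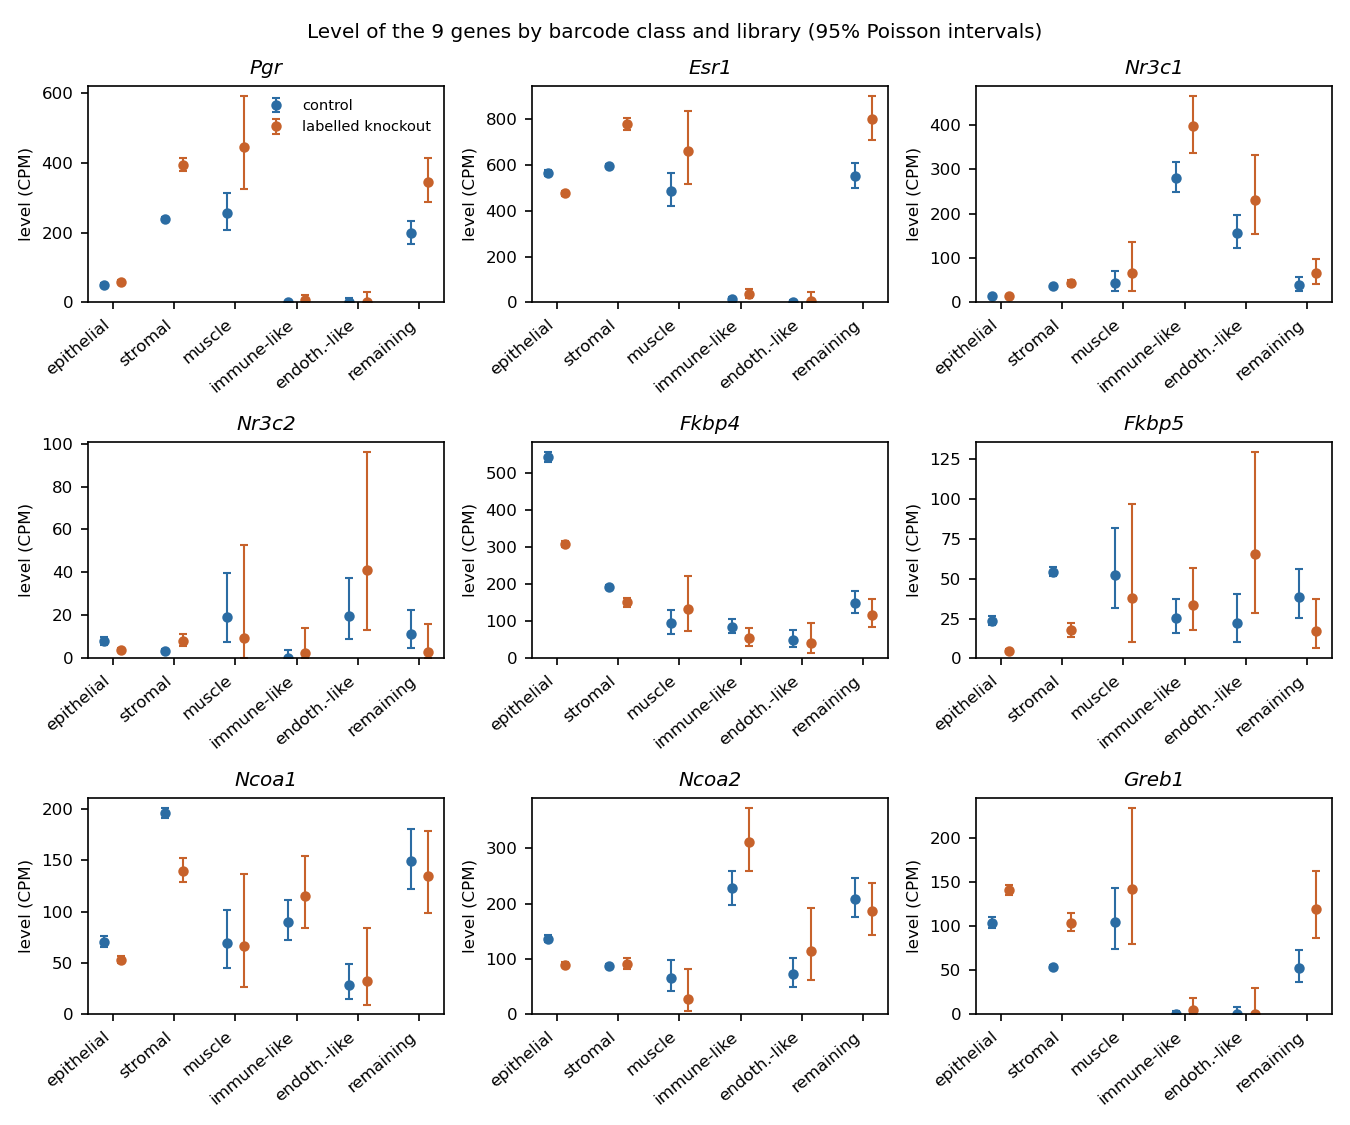
Levels of the 9 genes (vertical axis, CPM, from 0) in 6 barcode classes (horizontal axis) of the control (blue) and the library labelled KO (orange), with points for UMI sums and bars for exact 95% Poisson intervals. Pgr, Esr1 and Greb1 sat near 0 in immune-like and endothelial-like barcodes of both libraries, while Nr3c1 and Ncoa2 were highest in immune-like barcodes.

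Pgr, the progesterone receptor gene, had its highest levels in stroma and muscle in both libraries. Its epithelial level was 50.2 CPM (46.1 to 54.6) in the control and 59.3 CPM (55.7 to 63.0) in the library labelled KO. The stromal level was 238 CPM (233 to 244) and 395 CPM (376 to 416). Muscle barcodes had 257 and 445 CPM, on 93 and 47 UMIs, with the stromal markers at 1566 and 511 CPM in the same barcodes, of which 48 of 69 and 6 of 49 met more than 1 cut. Their part in the muscle level was not tested. The remaining barcodes had 199 and 346 CPM. In immune-like barcodes Pgr had 0 UMIs in the control, where 0 of 161 barcodes allow a share with a UMI of up to 1.86% by the floor of 3 counts and 2.27% by the exact interval, and its 3 UMIs in the library labelled KO came from 1 barcode. In both libraries stroma and muscle were thus high, epithelium was several-fold lower, and immune-like and endothelial-like barcodes were at or next to 0. The intervals of stroma and muscle overlapped each other in either library, so their order is not resolved.

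Between the libraries Pgr was 1.18-fold higher (1.06 to 1.31) in epithelium, 1.66-fold higher (1.57 to 1.76) in stroma and 1.73-fold higher (1.19 to 2.48) in muscle. Within a library the stroma stood 4.74-fold (4.34 to 5.18) above the epithelium in the control and 6.67-fold (6.16 to 7.23) above it in the library labelled KO. Depth moved with the stromal difference. Among stromal barcodes of 2000 to 6000 UMIs, which were 430 of 3180 and 870 of 1049 with medians of 4682.5 and 3690 UMIs, Pgr stood at 339 and 408 CPM, a ratio of 1.20 (1.10 to 1.32). Within control stroma the shallower barcodes had 253 CPM against 230 CPM in the deeper ones, split at the median depth. Malat1, a nuclear RNA whose share rises in damaged cells, was 10376 and 16745 CPM in stroma, 7236 and 3747 CPM among epithelial barcodes, and 9399 and 16386 CPM among the stromal barcodes of that depth window, which narrowed the depth gap without closing it. The part of Malat1 in the result was not tested.

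The whole libraries gave the opposite direction for Pgr. Over all kept barcodes the control had 182 CPM and the library labelled KO 124 CPM, 1.47-fold lower (1.41 to 1.54), although it was higher in epithelium, stroma, muscle and the remaining barcodes. Epithelium supplied 25.4% of control UMIs and 78.0% of those in the library labelled KO, and stroma 68.8% and 17.7%. The levels per class of the library labelled KO, weighted by the UMI makeup of the control, gave 298 CPM. Control levels weighted by the makeup of the library labelled KO gave 85.0 CPM. Stroma gave 90.0% of all Pgr UMIs of the control, against 56.4% for the library labelled KO.

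Whole-library and class levels differed for other members too. Ncoa1 was 2.23-fold lower (2.11 to 2.36) over the whole library, at 158 and 70.8 CPM, against 1.33-fold and 1.40-fold lower within epithelium and stroma. Fkbp4 was nearly level over the whole library, at 276 and 269.7 CPM, while it was lower in both classes.

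**Figure D2:**
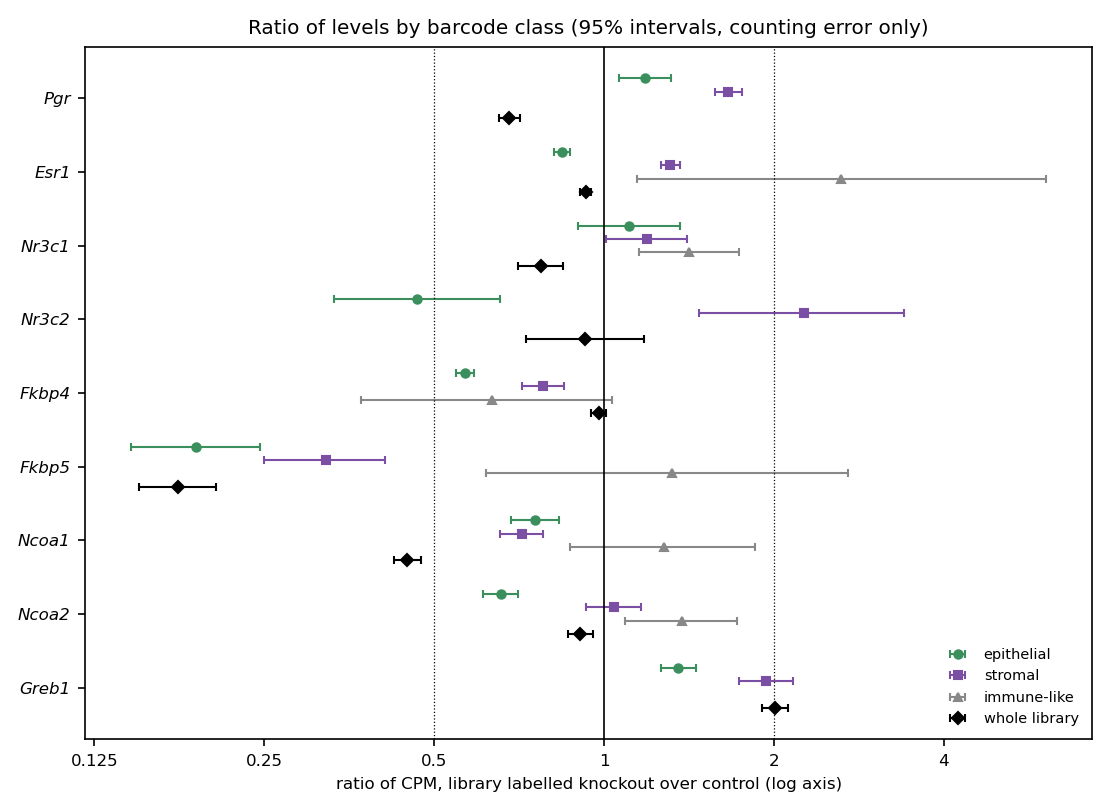
Ratio of CPM, the library labelled KO over the control (horizontal log axis), for each gene (vertical axis) in epithelial, stromal and immune-like barcodes and in the whole library, with exact 95% intervals for counting error; ratios with fewer than 4 UMIs in either library are left out. The whole-library diamond of Pgr lies at 0.680, left of 1, while its epithelial and stromal points lie at 1.18 and 1.66.

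Esr1, the gene of estrogen receptor alpha, was spread evenly over the hormone-responsive classes of the control. Control levels were 566 CPM (552 to 580) in epithelium, 595 CPM (587 to 604) in stroma, 489 CPM (419 to 566) in muscle and 552 CPM in the remaining barcodes. The library labelled KO had 477 CPM (467 to 487) in epithelium, 780 CPM (752 to 808) in stroma, 662 CPM (516 to 837) in muscle and 801 CPM in the remaining barcodes. Immune-like barcodes had 13.6 and 35.8 CPM, on 13 and 14 UMIs. The control classes other than the immune-like and endothelial-like ones were close to each other, with overlapping intervals for muscle, epithelium and the remaining barcodes. In the library labelled KO the epithelium was set apart, below the other 3.

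The epithelial ratio of Esr1 was 0.843 (0.816 to 0.872), close to the median of all measured genes in that class, and scaling with median-of-ratios factors gave 0.927. It pointed up, at 1.44 (1.01 to 2.12), among barcodes of 2000 to 6000 UMIs, where the control had 19 epithelial barcodes. Stroma gave 1.31-fold higher Esr1 (1.26 to 1.36), and 1.21-fold (1.13 to 1.30) in the window of 2000 to 6000 UMIs. The stroma-to-epithelium ratio of Esr1 accordingly was 1.05 (1.02 to 1.08) in the control and 1.63 (1.57 to 1.70) in the library labelled KO. Whether the epithelial and stromal ratios differ beyond variation between mice was not tested.

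Pgr and Esr1 were next read in the same barcodes, each thinned at random to 2000 UMIs so that depth did not set detection. Epithelial barcodes with both genes were 37 of 714 (5.18%, 3.67 to 7.07) in the control and 88 of 1367 (6.44%, 5.19 to 7.87) in the library labelled KO. Stromal barcodes with both were 701 of 3149 (22.3%, 20.8 to 23.8) and 340 of 939 (36.2%, 33.1 to 39.4). Muscle had 12 of 68 and 5 of 28. As a background level, immune-like barcodes with both genes were 0 of 150 in the control, which allows a share of up to 2.43% by the exact interval, and 1 of 85 in the library labelled KO. Thinning left out 31 and 110 stromal, 28 and 55 epithelial and 1 and 21 muscle barcodes that were shallower. It also left out 11 of 161 immune-like barcodes of the control and 113 of 198 of the library labelled KO.

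Co-detection was thus several-fold more common in stroma than in epithelium in each library, and the stromal share was higher in the library labelled KO. Without thinning, the stromal shares were 71.0% and 55.9%, an order that follows the deeper control and goes against the CPM, and the epithelial shares were 40.3% and 39.5%. Pgr, with or without Esr1, was detected in 34.6% of thinned stromal barcodes of the control and 49.1% of those labelled KO. Its shares in epithelial barcodes were 8.12% and 10.3%. In immune-like barcodes, which should lack Pgr, its thinned shares were 0% and 1.18%, with undivided median depths of 5507 and 1753 UMIs. Esr1 was detected in 60.1% and 71.2% of stromal, 60.6% and 56.5% of epithelial and 1.33% and 5.88% of immune-like barcodes.

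**Figure D3:**
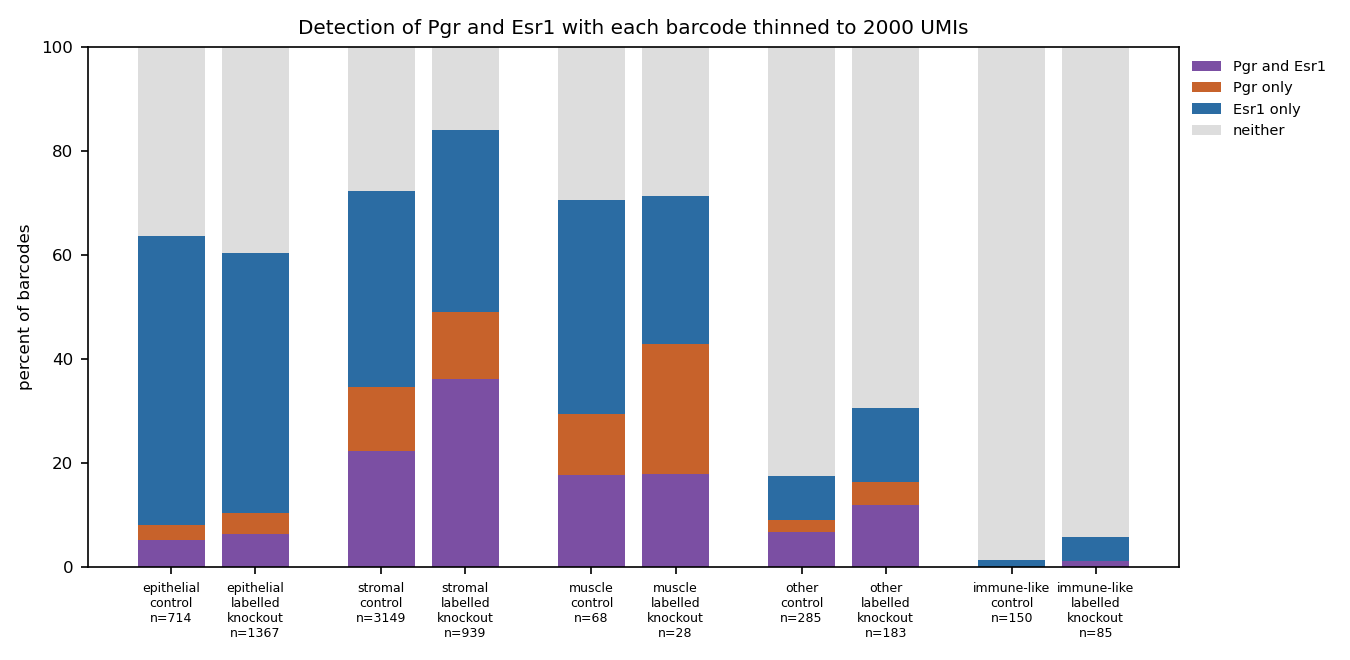
Percent of barcodes (vertical axis) with both Pgr and Esr1, Pgr only, Esr1 only or neither, by class and library, after thinning each barcode to 2000 UMIs; n is the number of barcodes. Stromal bars show both genes in 22.3% and 36.2% of barcodes, epithelial bars in 5.18% and 6.44%, and most Esr1-positive epithelial barcodes had no Pgr UMI.

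Within a class, detection of Esr1 differed little with that of Pgr. Esr1 was found in 64.3% (61.4 to 67.2) of Pgr-positive and 57.8% (55.6 to 59.9) of Pgr-negative stromal barcodes of the control. The same shares were 73.8% and 68.8% in the library labelled KO. Epithelial shares were 63.8% and 60.4% in the control and 62.4% and 55.8% in the library labelled KO. Esr1 was therefore seen slightly more often with Pgr than without it in these 4 settings, and only the intervals of control stroma were apart. In the remaining barcodes, a mix of cells, Esr1 was found in 76.0% of Pgr-positive and 37.5% of Pgr-negative control barcodes.

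Nr3c1, the glucocorticoid receptor gene, had its highest levels in immune-like and endothelial-like barcodes. Stroma, with more barcodes, supplied 66.9% of its UMIs in the control, and epithelium and stroma supplied 40.7% and 26.5% in the library labelled KO. Immune-like barcodes had 280.0 CPM (247 to 316) in the control and 397 CPM (337 to 464) in the library labelled KO, and endothelial-like barcodes 156 and 230.2 CPM. Stroma had 36.7 and 43.7 CPM and epithelium 13.7 and 15.2 CPM. The order from immune-like to endothelial-like, stromal and epithelial was shared by both libraries, and the intervals of neighbours in that order did not overlap. The ratios were 1.42 (1.15 to 1.73) in immune-like, 1.11 (0.901 to 1.36) in epithelial and 1.19 (1.01 to 1.40) in stromal barcodes, the last turning to 0.965 (0.736 to 1.27) in the depth window.

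Nr3c2, the mineralocorticoid receptor gene, which also binds progesterone, was scarce. Epithelium held 85 UMIs in the control and 64 in the library labelled KO, 7.89 and 3.68 CPM, 2.14-fold lower (1.53 to 3.01). Stroma held 105 and 32 UMIs, 3.59 and 8.13 CPM, 2.26-fold higher (1.47 to 3.39). Muscle held 7 and 1 UMIs and endothelial-like barcodes 9 and 5. The stromal UMIs were concentrated in few barcodes: in the library labelled KO 1.62% of stromal barcodes had any and 1 barcode had 10 of the 32. In the window of 2000 to 6000 UMIs the stromal ratio was 1.25 (0.539 to 3.14), an interval that holds 1.

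Fkbp4, the immunophilin that supports progesterone receptor function, was highest in epithelium. The epithelial level was 541 CPM (527 to 555) in the control and 307 CPM (299 to 315) in the library labelled KO. Stroma had 193 CPM (188 to 198) and 150.5 CPM (139 to 163), and immune-like barcodes 84.9 and 53.7 CPM on 81 and 21 UMIs. It was therefore 1.76-fold lower (1.70 to 1.83) in epithelium and 1.28-fold lower (1.18 to 1.40) in stroma of the library labelled KO. Epithelium exceeded stroma 2.81-fold in the control and 2.04-fold in the library labelled KO. The variance of its thinned counts over their mean, which is 1 for pure counting, was 1.20 and 1.06 in epithelium and 1.02 and 0.982 in stroma. For Pgr it was 1.01 and 1.03 in epithelium and 1.36 and 1.52 in stroma. Thinned epithelial means were 0.0854 and 0.111 UMIs per barcode for Pgr, against 1.19 and 0.656 for Fkbp4. A low mean keeps this value near 1, so it cannot order these genes in epithelium.

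Fkbp5, the hormone-induced immunophilin, had the lowest ratio of the 9 genes in each main class. Control epithelium had 23.7 CPM (20.8 to 26.8), on 255 UMIs, and that of the library labelled KO 4.49 CPM (3.55 to 5.60), on 78. Stroma had 54.5 CPM (51.8 to 57.2), on 1592 UMIs, and 17.5 CPM (13.6 to 22.2), on 69. These are 5.27-fold (4.08 to 6.89) and 3.10-fold (2.44 to 4.01) lower levels. Fkbp5 was not lower in 2 other classes: immune-like barcodes had 25.2 and 33.3 CPM, on 24 and 13 UMIs, and endothelial-like barcodes 21.9 and 65.8 CPM, on 10 and 8 UMIs. Those sums are small, and the immune-like ratio of 1.32 carried an interval of 0.618 to 2.70, above the epithelial and stromal intervals. Muscle had 52.5 and 37.8 CPM on 19 and 4 UMIs, with overlapping intervals. The remaining barcodes had 38.6 and 17.2 CPM on 27 and 6 UMIs, a ratio of 0.444 (0.150 to 1.10). In the window of 2000 to 6000 UMIs the stromal ratio was 0.218 (0.158 to 0.297), further from 1 than over all barcodes. The epithelial ratio there was 0.468 (0.0628 to 20.8), an interval that holds 1, with 19 control barcodes. The promoters of both immunophilin genes, printed above, carried GC boxes and no full response element in the window.

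Ncoa1 (SRC-1) and Ncoa2 (SRC-2) are histone acetyltransferase-recruiting coactivators of steroid receptors, and Ncoa2 is needed for progesterone action in the uterus. Epithelial Ncoa1 was 70.6 and 53.2 CPM, and stromal Ncoa1 196 and 139.8 CPM, 1.33-fold (1.20 to 1.46) and 1.40-fold (1.28 to 1.53) lower in the library labelled KO. It favoured stroma in both libraries, 2.77-fold in the control and 2.63-fold in the library labelled KO. Ncoa2 had 137 and 89.8 CPM in epithelium, 1.52-fold lower (1.42 to 1.64), and 87.8 and 91.5 CPM in stroma, a ratio of 1.04 (0.931 to 1.16). By CPM, Ncoa1 was thus lower in both classes, while the stromal interval of Ncoa2 held 1. In control epithelium 1 barcode held 51 of the 761 UMIs of Ncoa1. Its thinned shares in epithelium were 11.5% (9.24 to 14.1) and 10.6% (9.02 to 12.4), with overlapping intervals. Whether the ratios of Ncoa2 differ between classes was not tested. Ncoa2 was highest in immune-like barcodes, at 228 and 312 CPM, with an interval that overlapped that of the remaining barcodes in the control. With the 19 control epithelial barcodes of 2000 to 6000 UMIs both epithelial ratios pointed up, at 2.11 (0.563 to 17.7) for Ncoa1 and 1.30 (0.541 to 4.08) for Ncoa2, and the Ncoa2 ratio in stroma of that window was 0.975.

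Greb1, growth regulation by estrogen in breast cancer 1, followed the receptor-positive classes. Epithelium had 104 CPM (98.0 to 110.2) in the control and 141 CPM (135 to 146) in the library labelled KO, 1.35-fold higher (1.26 to 1.45). Stroma had 53.7 CPM (51.1 to 56.5) and 104 CPM (94.4 to 115), 1.94-fold higher (1.74 to 2.16). Immune-like barcodes had 0 and 2 UMIs and endothelial-like barcodes 0 in both libraries. The stromal ratio of Greb1 lay above that of Esr1, overlapped that of Pgr in its interval, and was 1.46 (1.19 to 1.78) in the depth window. Greb1 was found in 34.5% of Pgr-positive and 16.9% of Pgr-negative epithelial barcodes of the control. In the library labelled KO both shares were 24.8%. Its stromal shares were 11.3% and 8.21% in the control and 21.3% and 15.9% in the library labelled KO.

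Glands were read through Foxa2, a transcription factor of uterine glands. Epithelial barcodes with a Foxa2 UMI were 63 in the control and 115 in the library labelled KO, with medians of 11557 and 12933 UMIs, against 679 and 1307 without one, with medians of 11706 and 9063. As a check chosen after its values were seen, the gland protease gene Prss29 was 11929.9 CPM with Foxa2 and 807 CPM without it in the control, and 571 and 145 CPM in the library labelled KO. A barcode without a Foxa2 UMI may still be glandular, since detection is incomplete.

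In the control the Foxa2-positive barcodes differed from the rest in several members. Nr3c2 stood at 29.2 CPM (19.1 to 42.7) with Foxa2 and 5.97 CPM (4.55 to 7.70) without, and Greb1 at 236 CPM (205 to 269.7) and 92.1 CPM. Fkbp5 was the reverse, 5.61 CPM (1.82 to 13.1) with Foxa2 and 25.3 CPM (22.3 to 28.6) without. Esr1 was 735 and 550.3 CPM and Fkbp4 659 and 530.4 CPM. For these genes the library labelled KO had smaller contrasts. Nr3c2 stood there at 5.19 and 3.52 CPM, Greb1 at 169.5 and 138 CPM and Fkbp5 at 3.46 and 4.60 CPM. Esr1 was 514 and 473 CPM and Fkbp4 340.2 and 303 CPM. Pgr was 72.9 CPM with Foxa2 and 48.2 CPM without in the control, and 73.2 and 57.7 CPM in the library labelled KO. Ncoa2 turned between the libraries. It was 107 CPM (86.2 to 130) with Foxa2 and 140 CPM (132 to 147) without in the control. In the library labelled KO it was 117 CPM (102 to 134) and 86.8 CPM (82.3 to 91.6). Lower Fkbp5 in the library labelled KO was therefore visible in the Foxa2-negative barcodes, while in the Foxa2-positive ones the intervals overlapped on 5 and 6 UMIs. Lower Nr3c2 had separate intervals in the Foxa2-positive barcodes, on 26 and 9 UMIs. It was lower in the Foxa2-negative barcodes too, on 59 and 55 UMIs. Intervals there, 4.55 to 7.70 and 2.65 to 4.58 CPM, overlapped only at their ends.

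**Figure D4:**
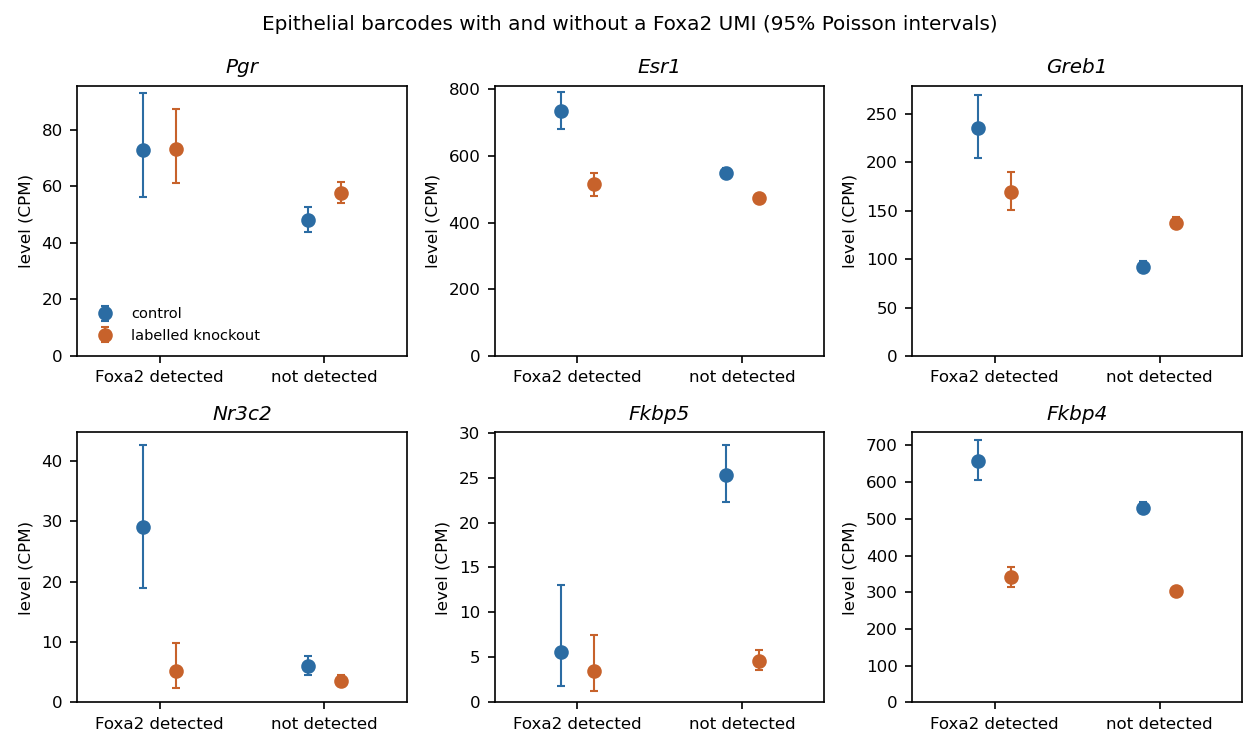
Levels (vertical axes, CPM, from 0) of 6 genes in epithelial barcodes with and without a Foxa2 UMI in the control (blue) and the library labelled KO (orange), with exact 95% Poisson intervals. Nr3c2 stands out at 29.2 CPM in Foxa2-positive control barcodes, and Fkbp5 at 25.3 CPM in Foxa2-negative control barcodes.

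Further genes of the same machinery were read from 4 lists, of chaperones, other nuclear receptors, coregulators and corticosteroid-responsive genes, together 75 genes. Of the 17 chaperones and cochaperones, 0 passed 2-fold in either class, where 4.92% of all measured genes were higher and 15.5% lower in epithelium and 5.61% and 11.5% in stroma, with median log2 ratios of -0.16 in epithelium and 0.07 in stroma. Hsp90ab1, a heat shock protein 90 gene, had 2889.9 and 2843 CPM in epithelial barcodes and 3491 and 3384 CPM in stromal ones. Stub1, a ubiquitin ligase that works with these chaperones, had the smallest epithelial ratio, 0.542 (0.507 to 0.579), and Dnajb1, a heat-inducible cochaperone, the largest stromal one, 1.73 (1.62 to 1.83). Fkbp4 also stayed within 2-fold in both classes, and Stub1 had a smaller epithelial ratio than Fkbp4. Against the same shares, 0 of 19 coregulators were beyond 2-fold in either class, with medians of -0.10 and 0.10. Foxo1, which progesterone-primed stroma uses, was 37.9 and 70.2 CPM in stroma, 1.85-fold higher (1.62 to 2.11), and Nrip1, a corepressor of estrogen receptor, was 1.56-fold higher there (1.45 to 1.68).

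Of 19 other receptors 18 were measured in each class. In epithelium 0 were at least 2-fold higher and 5 lower (Esr2, Pgrmc2, Rarb, Vdr and Thra) against 4.92% and 15.5% of all measured genes. In stroma 0 were higher and 4 lower (Esr2, Rarb, Vdr and Thra), against 5.61% and 11.5%. Esr2, Rarb and Vdr rested on few UMIs, such as 66 and 4 for Esr2 in stroma. Pgrmc2, a membrane progesterone-binding protein, was 77.7 and 30.4 CPM in epithelium, 2.55-fold lower (2.29 to 2.85), and 56.2 and 84.1 CPM in stroma, higher in the library labelled KO (ratio interval 1.33 to 1.68). Nr2f2 (COUP-TFII), a stromal factor downstream of progesterone, was 441 and 286 CPM in stroma, 1.54-fold lower (1.45 to 1.64).

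Of the 20 corticosteroid-responsive genes, 10 were lower by 2-fold or more in epithelium, against 15.5% of all measured genes, and 4 higher by as much, against 4.92%. The median log2 ratio of the list there was -0.99, where all measured genes had -0.18. Zbtb16, a zinc finger factor that progesterone can also switch on, stood at 30.9 and 1.61 CPM, 19.2-fold lower (13.0 to 29.3). Sult1a1, a sulfotransferase, was 37.4 and 1.67 CPM, 22.4-fold lower (15.4 to 33.9), and the metallothionein gene Mt2 was 317 and 42.8 CPM, 7.41-fold lower (6.84 to 8.03). This list was chosen with earlier results of these data known, so it gives no independent support for lower Fkbp5. Also at least 2-fold lower in epithelium were Tsc22d3 (GILZ), Per1, Irs2, Mt1, Cebpd, Hsd11b2 and Glul. Higher were Sgk1, Nfkbia, Ddit4 and Lcn2, and Lcn2, which estrogen also induces, was 1553 and 5617 CPM, 3.62-fold higher (3.56 to 3.68).

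In stroma 6 of the 20 were higher by 2-fold or more, against 5.61% of all measured genes, and 2 were lower, against 11.5%. The median log2 ratio of the list there was 0.40, against -0.05 for all genes. Sgk1, Nfkbia and Lcn2 were higher and Sult1a1 was lower in both classes, and whether the list differs between classes was not tested. Tsc22d3, chosen after its values were seen, was 119 and 224 CPM there, against 25.7 and 7.60 CPM in epithelium, and Zbtb16 was 220.1 and 142 CPM, 1.55-fold lower (1.42 to 1.69). The others past 2-fold in stroma were Mt1, Mt2 and Hsd11b1, which were higher, and Ddit4, which was lower. Stromal Lcn2 was 2.87 and 35.8 CPM, and immune-like barcodes had 1.05 and 58.9 CPM of it, on 1 and 23 UMIs. The part of free RNA in these levels was not tested. In immune-like barcodes Mt1 was 256 and 133 CPM, Tsc22d3 97.5 and 81.9 CPM and Zbtb16 54.5 and 69.1 CPM.

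**Figure D5:**
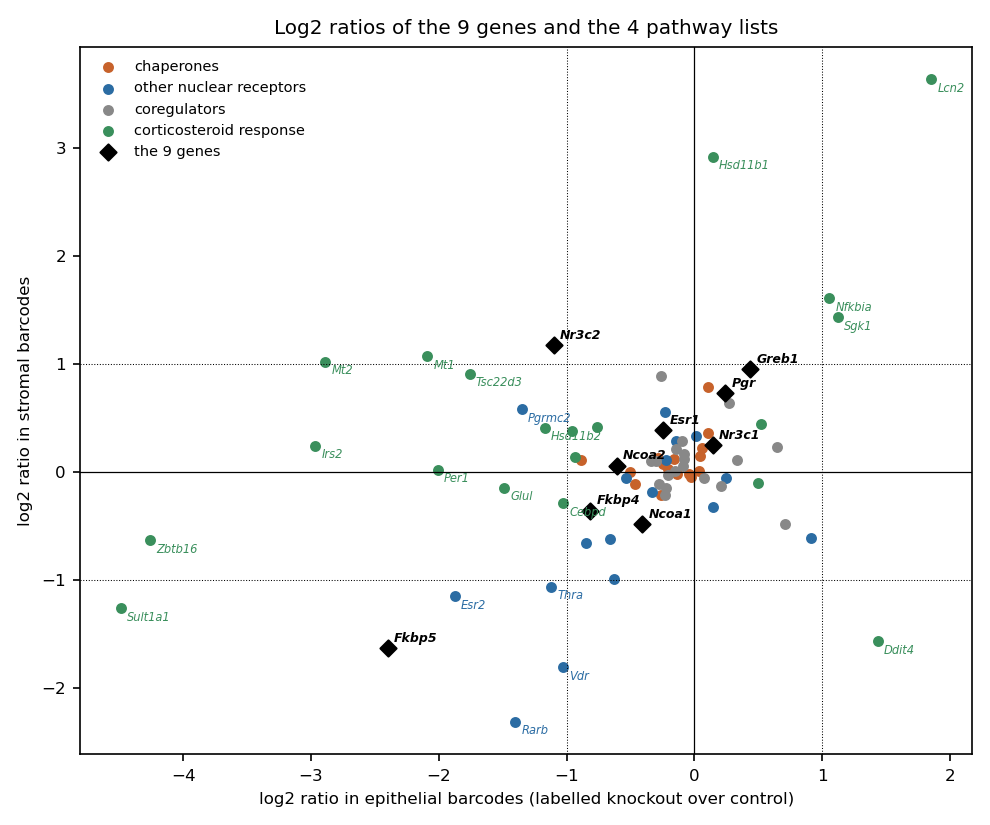
Log2 ratio of CPM, the library labelled KO over the control, in epithelial (horizontal axis) and stromal barcodes (vertical axis) for the 9 genes (black diamonds) and the measured genes of 4 lists (coloured points), with dotted lines at 2-fold. Fkbp5 lies in the lower left, at -2.40 and -1.63, while chaperones and coregulators cluster near 0. Sult1a1, Esr2, Rarb, Vdr and Thra also lie past 2-fold lower on both axes. Zbtb16, at -4.26 and -0.63, is past it on the epithelial axis only.

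Genes with patterns like Pgr and Esr1 were sought by Pearson correlation of log2(CPM + 1) over 12 points, 6 classes in each of 2 libraries, among 6853 genes with at least 50 CPM in any. Points of a library share its depth and free RNA, so these are descriptions. Pgr was most like Pknox2 (r = 0.976), Col4a5 (0.970), Bmpr1a (0.966), Pard3 (0.961) and E330013P04Rik (0.958). Esr1 was most like Bmpr1a (0.983), Greb1 (0.974), Egfr (0.973), Serpinf1 (0.966) and Emx2 (0.963). Pknox2, a homeodomain factor, had 16.4 and 17.4 CPM in epithelial barcodes and 225 and 319 CPM in stromal ones. Greb1 was the member nearest to both receptors, with r of 0.939 to Pgr, and Pgr and Esr1 correlated at 0.931. Pgr, Esr1 and Greb1 were all near 0 in immune-like and endothelial-like barcodes, and the part of those points in r was not tested. Between the main classes Greb1 and Pgr ran opposite. Epithelium over stroma was 1.93 in the control and 1.35 in the library labelled KO for Greb1, and 0.211 and 0.150 for Pgr.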

How the data were processed

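Counts were deposited by the authors as integer UMIs per gene and barcode, made by Cell Ranger 7.0.1 per the file headers. The submitters' processing notes list mm39 as the build and Seurat without a version. The sources used here do not say whether intronic reads were counted. Gene names came from the deposited feature tables.

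Barcodes under 500 genes (65 in the control, 115 in the library labelled KO) and then those over 15% mitochondrial UMIs (100 and 52) were left out. As doublets, the top Scrublet scores (scanpy 1.11.5) were dropped at a rate of 0.8% per 1000 barcodes, 159 and 70 in all. A barcode that met more than 1 cut (78 and 46) went to the class with the largest sum relative to its cut. Within 1.25 times above their cut lay 3 and 8 epithelial, 75 and 47 stromal and 0 and 5 muscle barcodes. Immune-like and endothelial-like barcodes were taken from the other class with summed markers of at least 10 per 10000 UMIs.

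UMIs were summed per class and library in Python 3.11.15 (pandas 2.3.3, numpy 2.4.6) and divided by the class total. Poisson, conditional ratio and binomial (Clopper-Pearson) intervals came from scipy 1.17.1. They cover counting error only, and a count of 0 was read against a floor of 3 UMIs. A gene was measured in a class with at least 20 UMIs over both libraries. The ratios were tested on simulated Poisson counts for stromal barcodes of both libraries (32285 genes, 200 changed). Changed genes had at least 100 expected UMIs over both libraries, and 100 of 100 genes changed 4-fold were recovered past 2-fold. Genes of fewer UMIs, or with counts more variable than Poisson, were not covered.

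The members and the 4 lists were chosen with earlier results of these data known, so no list gives independent support. All 9 members are named, and of each list the 3 genes with the largest and the 3 with the smallest ratio by the 95% bound nearest 1 with at least 20 UMIs could be named per class. Genes past 2-fold outside this rule were named after their values were seen. Alternatives were other barcode filters, class rules, cuts, scalings, thinning depths, count minimums and folds. The depth window of 2000 to 6000 UMIs was chosen after the data were seen. Promoters for GRCm38.p6 came from RefSeq. Those of Nr3c1 and Ncoa2 were not used here, and the values of 1 listed receptor gene are not reported here.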

Additional observations from a re-analysis of the deposited data

Results flagged for a closer look

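Esr1 and Nr3c2 moved in opposite directions in epithelium and stroma. The Esr1 ratio, the library labelled KO over the control, was 0.843 in epithelial barcodes and 1.31 in stromal barcodes. That of Nr3c2 was 0.467 in epithelial and 2.26 in stromal barcodes. With 1 library per genotype the difference between the classes was not tested. The epithelial Esr1 ratio pointed up among the 19 control barcodes of 2000 to 6000 UMIs, and the stromal Nr3c2 ratio rested on 105 and 32 UMIs.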

How the results depend on the processing

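No paired analysis was possible because each genotype had 1 library, and no replicate could be left out for the same reason. Using all deposited barcodes, barcodes that met exactly 1 cut or the first cut met moved none of the values that answer a comparison. Over all settings 195 such values stayed within the counting interval of the reported ratio or share, or, for counts and shares of genes past a fold, within 1.5 times, and 63 did not. These follow. The causes were not tested. Barcodes of 2000 to 6000 UMIs, a choice made after the data were seen, gave ratios in stroma of 1.20 (Pgr), 1.21 (Esr1), 0.964 (Nr3c1, turned), 1.25 (Nr3c2), 0.218 (Fkbp5), 0.821 (Ncoa1) and 1.46 (Greb1). In epithelium, with 19 control barcodes, they gave 1.58 (Pgr), 1.44 (Esr1, turned), 0.468 (Fkbp5), 2.11 (Ncoa1, turned), 1.30 (Ncoa2, turned) and 2.52 (Greb1). Doubled cuts left 62.2% and 29.8% of barcodes stromal, and gave stromal ratios of 1.255 (Esr1) and 1.44 (Nr3c2). Scaling by the median of ratios gave epithelial ratios of 0.927 (Esr1), 0.624 (Fkbp4), 0.722 (Ncoa2) and 1.49 (Greb1), and 1 member at least 2-fold lower in place of 2. The mean over barcodes gave epithelial ratios of 0.906 (Esr1) and 0.849 (Ncoa1), 1 member lower in epithelium and 2 higher in stroma. Levels from barcodes thinned to 2000 UMIs gave epithelial ratios of 0.8996 (Esr1), 0.134 (Fkbp5), 0.9096 (Ncoa1) and 2.14 (Nr3c1), stromal ratios of 2.18 (Greb1), 0.6402 (Ncoa1) and 3.61 (Nr3c2), 1 member higher and 1 lower in epithelium, 2 higher in stroma, and 10.3% of epithelial genes lower. Co-detection of Pgr and Esr1 in epithelium was 1.24% and 2.22% thinned to 1000 UMIs, 13.7% and 16.6% thinned to 4000 and 40.3% and 39.5% not thinned. In stroma it was 9.12% and 17.4%, 43.0% and 60.5%, and 71.0% and 55.9%, so the order of the libraries turned only without thinning. A fold of 1.5 gave 4 members lower in epithelium and 3 higher in stroma, 7 list genes higher in epithelium, 10 higher and 11 lower in stroma, and 9.45% higher and 27.1% lower of all epithelial genes and 12.4% and 20.8% of all stromal genes. With at least 100 UMIs, 3 list genes were lower in stroma in place of 6, and 10.1% of epithelial and 7.18% of stromal genes were lower. With at least 1 UMI, 25.5% of epithelial genes were lower and 31.7% of stromal genes higher. Depth limits Nr3c2 most, with 105 and 32 UMIs in stroma, and it has no epithelial ratio in the depth window, nor has Nr3c1, because both were at 0 UMIs in the 19 control barcodes.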

Other observations

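Barcodes with a UMI of Mki67 or Top2a, genes of dividing cells, numbered 108 in control epithelium and 66 in epithelium of the library labelled KO, and 195 and 19 in stroma. In control stroma Pgr was 204 CPM (186 to 224) in these barcodes and 241 CPM (235 to 247) in the rest, and Esr1 was 528 and 601 CPM. In control epithelium Esr1 was 497 CPM (468 to 528) in these barcodes and 582 CPM (566 to 599) in the rest, while the library labelled KO had 507 and 475 CPM. Greb1 was 85.0 and 109 CPM in control epithelium and 153 and 139.9 CPM in the library labelled KO. Fkbp5 was 22.2 and 24.0 CPM in control epithelium, a difference within the counting intervals. These barcodes were deeper, with a median of 11088 against 8785 UMIs in control stroma, and the part of depth was not tested.

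In control epithelium 1 barcode held 51 of the 761 UMIs of Ncoa1. In control stroma 1 barcode held 86 of the 17405 UMIs of Esr1.

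Thrb, a thyroid hormone receptor gene, was 41.7 and 78.6 CPM in epithelium, a ratio of 1.88 (1.69 to 2.10), and 48.5 and 31.8 CPM in stroma, a ratio of 0.655 (0.541 to 0.786). Whether the ratios of Thrb differ between classes was not tested.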
